A study of Mus musculus with 2 samples.

Results

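CTCF binding in mouse embryonic stem cells (ESCs) was examined around 40 genes that encode transcription factors of differentiated lineages, Gata2 to Gata6, 8 Pax genes, the LIM homeobox genes Lhx1 to Lhx6, Lhx8, Lhx9 and Isl1, 5 NK homeobox genes, Foxa1 to Foxa3, the basic helix-loop-helix genes Neurog1, Neurog2, Neurod1, Olig2 and Myod1, the T-box genes Tbx5 and Eomes, and Cdx1, Cdx2 and Gsc. They were taken as a list of names from the 22367 protein-coding genes of GENCODE M1 (mm9), and all 40 were found. The list was drawn up as genes held silent in ESCs. ChIP libraries hold no RNA, so neither that silence nor the cell type could be checked here. For each gene the start (the outermost annotated 5′ end), the body and 50 kb on each side were searched for CTCF peaks.

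These factors bind DNA and switch on the genes of heart, gut, muscle, nerve or trophoblast once ESCs leave the pluripotent state, and several are used as lineage markers. CTCF is a zinc finger protein that binds a long, directional DNA motif, stops cohesin as it draws chromatin into loops, and separates neighbouring regulatory domains. Loops tend to form between CTCF sites whose motifs point towards each other, so the nearest sites on either side of a gene, and the strands of their motifs, describe the stretch of DNA in which it lies.

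The study used 2 libraries, 1 for each antibody, both from an R1/E ESC line carrying CTCF with a C-terminal LAP tag (which contains GFP) on a stably integrated BAC. Resistant clones had been sorted for GFP, so both libraries share the transgene, its extra copy of CTCF and the culture in medium with LIF. Chromatin was fixed with 1% formaldehyde, sheared to about 500 bp and precipitated with goat antibody against eGFP or with goat IgG as isotype control, which the labels also call input DNA. The CTCF library held 8391191 tags and the IgG library 7988889. There is no replicate, so intervals below cover counting error only and tests compare these 2 libraries, not conditions. Of the authors' 33788 peaks, 33756 lie on the assembled chromosomes used here. A peak's summit is its tallest point and its height is the number of overlapping tags there.

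The sequences under the main sites are shown first. The CTCF matrix, built from 192 sequences, has TGGCCACCAGGGGGCACTA as its most frequent bases. The matches to it (p at most 1e-05, within 150 bp of the summit) are in capitals, on the strand of the motif, in mm9 coordinates. The first set holds the match in the peak at the Foxa1 start and those of the 4 tallest summits in the 40 regions that have one. The summit next to Foxa3 lies in an exon of Irf2bp1, so only the match is printed there.
Foxa1 start, chr12:58646096-58646154, minus strand: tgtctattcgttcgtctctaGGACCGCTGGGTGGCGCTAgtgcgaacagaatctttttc
Foxa3 region, chr7:19592027-19592045, plus strand: TGACCACTAGGTGGTGCCT
Myod1 region, chr7:53648671-53648729, plus strand: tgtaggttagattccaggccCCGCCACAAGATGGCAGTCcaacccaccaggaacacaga
Pax1 intron, chr2:147204831-147204889, plus strand: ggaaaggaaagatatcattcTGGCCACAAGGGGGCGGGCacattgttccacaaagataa
Lhx3 region, chr2:26009682-26009740, plus strand: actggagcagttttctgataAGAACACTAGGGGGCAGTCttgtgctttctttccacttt
The Pax1 start peak and the tallest summit near Cdx1 held no match.

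The next set holds the nearest summits on either side of Isl1, Gata2 and Olig2, where the motifs point inwards across the gene, and of Gata3, where both lie on the minus strand. They are given as lower and higher coordinate.
Isl1 lower, chr13:116244709-116244767, plus strand: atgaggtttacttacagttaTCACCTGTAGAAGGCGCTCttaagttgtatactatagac
Isl1 higher, chr13:117102506-117102564, minus strand: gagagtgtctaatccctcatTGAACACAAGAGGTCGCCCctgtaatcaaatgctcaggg
Gata2 lower, chr6:88139603-88139661, plus strand: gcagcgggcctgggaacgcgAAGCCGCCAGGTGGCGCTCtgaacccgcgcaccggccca
Gata2 higher, chr6:88348146-88348204, minus strand: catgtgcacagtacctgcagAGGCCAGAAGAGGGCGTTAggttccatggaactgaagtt
Olig2 lower, chr16:91218359-91218417, plus strand: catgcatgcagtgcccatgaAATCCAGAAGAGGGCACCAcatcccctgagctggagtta
Olig2 higher, chr16:91314550-91314608, minus strand: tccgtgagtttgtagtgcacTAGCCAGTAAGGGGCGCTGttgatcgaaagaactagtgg
Gata3 lower, chr2:9236966-9237024, minus strand: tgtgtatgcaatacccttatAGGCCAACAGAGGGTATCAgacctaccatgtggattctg
Gata3 higher, chr2:9932079-9932137, minus strand: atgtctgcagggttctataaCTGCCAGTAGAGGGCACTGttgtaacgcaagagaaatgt

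CTCF peaks at the starts themselves were few. Within 1 kb of the start, 2 of the 40 genes had a peak, Pax1 and Foxa1, or 5% (95% Wilson interval 1.38 to 16.5), beside 10.1% of all protein-coding genes. The interval includes the share of all genes. No further gene gained a peak when every annotated transcript start was used, under which 14.6% of all genes have one.

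Pax1 (chr2:147187661-147219031, plus strand), a paired box gene of the vertebral column, had its peak in the first part of the gene. The summit lies in an exon 581 bp after the start, with a height of 14 tags and a score of 123.9. Within 1 kb of the start stood 35 CTCF tags and 7 IgG tags, the highest CTCF count of the 40 starts. Scaled to depth this is 4.76 times the IgG level (exact interval 2.08 to 12.7, exact binomial test, adjusted p = 0.000468). The peak was called from these same tags of both libraries, so the test is no separate evidence for it. In bins of 250 bp, 15 of the CTCF tags fell between 500 and 750 bp after the start, where the IgG library had 0, and with a window of 500 bp, which leaves this bin out, the start did not pass the test.

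Foxa1 (chr12:58641618-58647108, minus strand), a pioneer factor of endoderm, had a lower peak with a summit 1075 bp after the start, in its intron. The part of the peak nearer the start lies within 1 kb, but the summit does not. The summit was 9 tags high with a score of 74.21, and the whole peak held 17 CTCF tags and 2 IgG tags. Within 1 kb of the start the counts were 7 and 2 tags, a ratio of 3.33 (0.634 to 32.9) that did not pass the exact test (adjusted p = 0.549). Its summit is left out when the summit itself has to lie in the window, and its score is under 100.

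Several starts had their nearest summit just beyond the 1 kb window. Foxa2, a further endoderm pioneer factor, had one 1695 bp upstream, with a height of 11 tags. Pax9, a gene of tooth and thymus development, had one 1824 bp upstream with a height of 9, in an exon of Gm15524. Myod1, the master gene of skeletal muscle, had one 2050 bp downstream with a height of 11, in its own exon. With a window of 2 kb these 3 joined Pax1 and Foxa1, making 5 of 40 beside 14.6% of all genes.

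The tags of both libraries show which starts stood above the control (plot of tags at the 40 starts). CTCF tags ranged from 2 to 35 with a median of 5, and IgG tags from 0 to 10 with a median of 3. Scaled to depth, 28 starts had more CTCF than IgG and 12 had fewer. The exact binomial test called CTCF above IgG at 4 of 40 starts, beside 10.4% of the 21619 protein-coding genes with tags there, and no start of the 40 was called the other way. At an unadjusted p under 0.05 there were 6, all with CTCF above IgG. The share of all genes at that threshold was not counted.

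**Figure D1:**
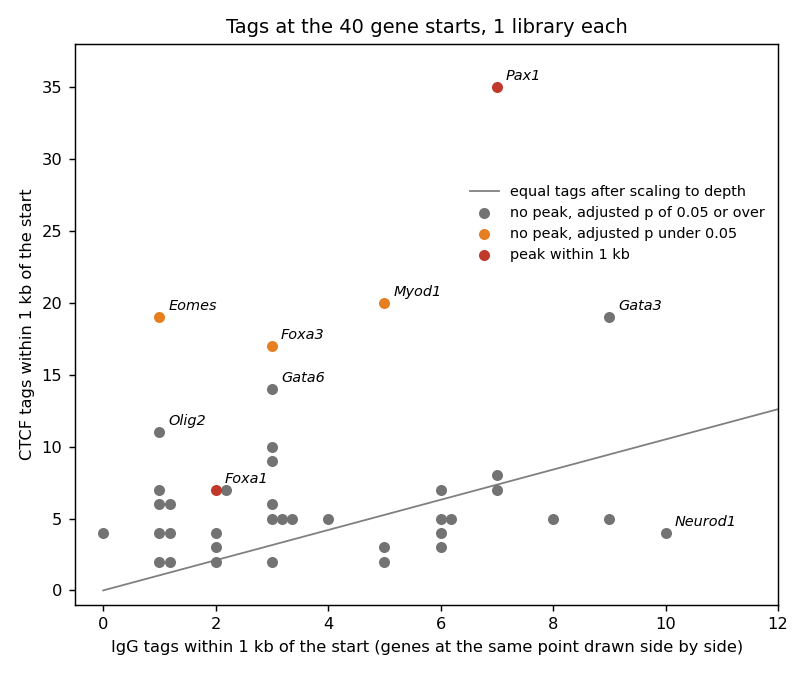
Tags within 1 kb of each of the 40 starts, IgG library on the x axis and CTCF library on the y axis, both in tags; the line marks equal tags after scaling to depth. Pax1 stands highest with 35 CTCF tags, Eomes, Foxa3 and Myod1 are the starts without a peak that passed the test, and Neurod1 has the most IgG tags, 10.

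Eomes, Foxa3 and Myod1 passed the test without a deposited peak in the window. Of the 38 starts without a peak 35 were not called, beside 19553 of 20110 such starts of all protein-coding genes. Without a call were also 38 of 38 such starts of the other lineage factors and 17 of 19 of the pluripotency factors. Eomes (chr9:118387330-118395250, plus strand), which acts in trophoblast and early mesendoderm, had 19 CTCF tags and 1 IgG tag, a ratio of 18.1 (exact interval 2.88 to 752, exact binomial test, adjusted p = 0.000963). Of these CTCF tags 9 fell between 250 and 500 bp after the start, where the IgG library had 0. A match to the CTCF motif lies there, 378 bp after the start, and it reads as follows in the direction of the motif.
Eomes start, chr9:118387699-118387717, minus strand: AGGCCAGTTGGGGGAGCCA
Around this match, 150 bp each way, there were 9 CTCF and 0 IgG tags.

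Foxa3 (chr7:19598631-19608887, minus strand), the liver-enriched member of its family, had 17 CTCF and 3 IgG tags. The ratio was 5.39 (exact interval 1.56 to 28.7, exact binomial test, adjusted p = 0.0293), and 8 of the tags fell in the 250 bp before the start. No motif match lies within 1 kb of it, and with a window of 2 kb the start did not pass. Myod1 (chr7:53631844-53634462, plus strand) had 20 CTCF and 5 IgG tags, a ratio of 3.81 (1.39 to 13.0, exact binomial test, adjusted p = 0.0425). Its tags were spread on both sides of the start, with up to 6 per bin, and without the shift of tags to the fragment centre, or with a window of 500 bp, the gene no longer passed.

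Olig2 and Gata6 came next. Olig2, a gene of motor neurons and oligodendrocytes, had 11 CTCF and 1 IgG tag, and Gata6, of primitive endoderm and heart, 14 and 3. Their adjusted p-values in the exact binomial test were 0.0588 and 0.0973, and both passed when depth was taken from tags outside the peaks. At Olig2, 8 CTCF and 0 IgG tags lay within 150 bp of a motif match at -663 bp from the start.
Olig2 start, chr16:91225123-91225141, plus strand: CCCCCACCTGGGGGCGCTA

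**Figure D2:**
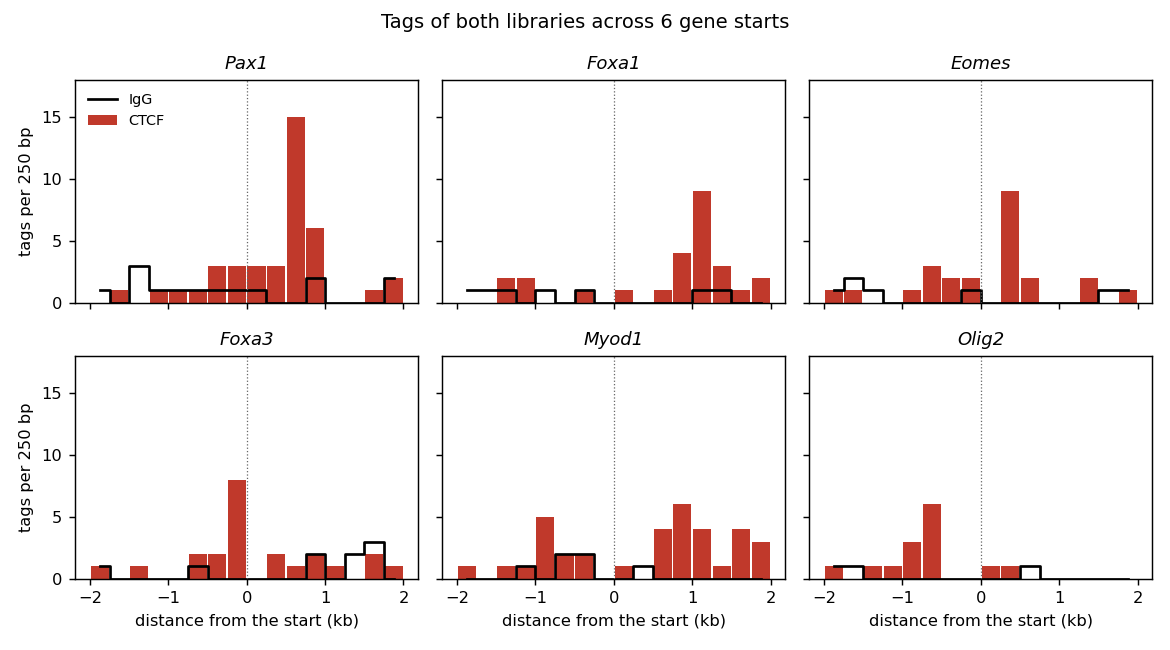
Tags in bins of 250 bp from 2 kb before to 2 kb after 6 starts, along the gene, CTCF as bars and IgG as a line. Pax1 has 15 CTCF tags in 1 bin and Foxa1 has 9 in the bin starting at 1000 bp, while Eomes shows 9, Foxa3 8 and Olig2 6 in their highest bin without a deposited peak in the window, and the tags of Myod1 are spread out.

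A CTCF motif within 1 kb of the start was found at 13 of the 40 genes (14 matches, 2 of them at Gata2), or 32.5% (20.1 to 48.0), beside 28.3% of all protein-coding genes. The match at Foxa1 is the only one of the 14 inside a peak. Around the other 13 stood 29 CTCF and 3 IgG tags in all, a ratio of 9.20 (2.85 to 47.2). Around the 5978 such matches outside peaks at all protein-coding starts the ratio was 3.19 (3.07 to 3.33), which lies within the wide interval of the 13. Of the 29 CTCF tags, 23 came from Eomes, Olig2 and Gata3, and at Gata2, Gata5, Lhx6 and Neurog1 there were 0 tags of either library.

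Over the 38 starts without a peak, the CTCF library had 256 tags and the IgG library 143, a depth-scaled ratio of 1.70 (1.38 to 2.11). All protein-coding starts without a peak had 1.30 (1.29 to 1.31), the other lineage factors 1.30 (1.06 to 1.6) and the pluripotency factors 1.80 (1.37 to 2.38), and the intervals of both lists overlap that of the 38. The starts also differed in base composition. Counting as CpG-rich a start whose CpG observed to expected ratio within 500 bp is at least 0.6, 68.4% of the 38 were CpG-rich beside 44.1% of all starts without a peak. Among CpG-rich starts without a peak the ratio was 1.59 (1.20 to 2.11) for the 26 lineage genes and 1.63 (1.61 to 1.65) for all genes, so it did not differ there beyond counting error. At the other 12 starts it was 1.87 (1.36 to 2.61), beside 1.10 (1.08 to 1.11) for all genes under that cutoff. There it was 1.4 (1.09 to 1.81) for the other lineage factors and 1.5 (1.08 to 2.10) for the pluripotency factors. The lower quartile of the CpG ratio was 0.587 over the 40 starts and 0.227 over all genes. CpG content under the cutoff was therefore not matched between all genes and the 12. These 12 include Foxa3 and Myod1. Without the starts past the test the ratio of the remaining 35 was 1.42 (1.14 to 1.78), and that of all genes 1.22 (1.21 to 1.23). What sets this level at starts without a peak was not tested.

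CTCF sites in the bodies and flanks of these genes were about as common as at all genes. A summit in the gene body was found at 12 of 40 genes, 30.0% (18.1 to 45.4), beside 36.0% of all genes, with a median gene length of 12.3 kb beside 15.4 kb. A summit in the 50 kb flanks was found at 33 of 40, 82.5% (68.1 to 91.3), beside 78.0%. Both intervals include the share of all genes. In all, 127 summits lay in the 40 regions, which do not overlap, so each was counted once. Of these, 58 were upstream of the gene (45.7%), 21 in its body (16.5%) and 48 downstream (37.8%), beside 39.6%, 21.2% and 39.1% over the regions of all protein-coding genes. This is 2.50 summits per 100 kb (exact Poisson interval 2.08 to 2.97). All protein-coding genes had 2.42 with the region of each gene counted. Those regions overlap, so the same summit can enter this value, and the shares by position, more than once. Over the whole genome there were 1.27 summits per 100 kb.

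For comparison, 39 other lineage factors (such as T, Sox17, Pdx1 and Myf5) were measured in the same way. A start peak was found at 1 of these 39, a body summit at 9 and a flank summit at 37. Of 19 pluripotency factors, 0 had a start peak (0% to 16.8%), 9 a summit in the body and 17 in the flanks. The exact test called CTCF above IgG at 0 of the 39 other lineage starts and 2 of the 19 pluripotency starts.

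**Figure D3:**
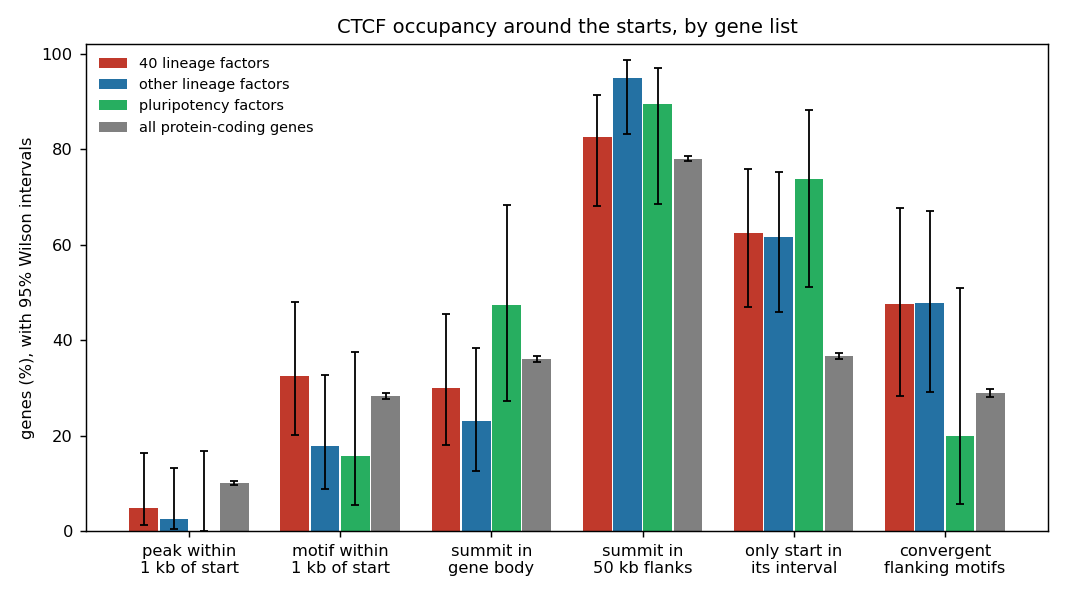
Share of genes in percent, with 95% Wilson intervals as error bars, for 6 features of the start and its surroundings in the 40 lineage factors, 39 other lineage factors, 19 pluripotency factors and all protein-coding genes. The lineage factors lie below all genes for start peaks and above them for being the only protein-coding start in their interval, 62.5% beside 36.7%; bars for convergent motifs use only genes with a motif on both sides.

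The summits carried a motif about as often as all summits did, but few of them were tall. Their median height was 12 tags (interval 11 to 13), beside 13 for the 29706 summits in the regions of all protein-coding genes. With flanks of 25 kb it was 11 and with flanks of 100 kb 13, beside 13 for all summits. A height of at least 20 was reached by 7 of the 127, or 5.51% (2.70 to 10.9). This stood beside 15.4% of summits in the regions of all protein-coding genes and 14.7% of all summits. A motif lay within 150 bp of 91 of the 127 summits, 71.7% (63.3 to 78.8), beside 72.6% of all summits. By position, 69 were intergenic, 54.3% (45.7 to 62.7), beside 45.3% of all summits, a share just outside the interval. Introns held 49, 38.6% (30.6 to 47.3) beside 45%, exons 7 and the 1 kb upstream of an annotated gene 2, 1.57% (0.433 to 5.56) beside 3.67%. For 76 of the 127 the nearest protein-coding start was that of the lineage gene itself.

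The 5 tallest summits lay near 5 different genes. The tallest, 31 tags high with 55 CTCF and 7 IgG tags in the peak, stood 16906 bp downstream of the Foxa3 start, in Irf2bp1. The next, of 26 tags, was 16808 bp downstream of the Myod1 start, between genes and nearest to Kcnc1, with 55 CTCF and 1 IgG tag. An intron of Pax1, 17146 bp after the start, held one of 25 tags with 58 CTCF and 5 IgG tags. One of 23 tags was 54105 bp downstream of the Lhx3 start (a pituitary and motor neuron gene), with 78 CTCF and 3 IgG tags. The fifth, of 22 tags, was 54035 bp downstream of the Cdx1 start, in an intron of Camk2a, with 37 CTCF and 1 IgG tag and no motif.

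The summits were unevenly spread over the 40 regions, from 0 to 11. Cdx2 (chr5:148112381-148118846, minus strand), the trophectoderm and gut homeobox gene, had the most, 11, of which 6 were upstream and 5 downstream. Heights ran from 8 to 16 tags, 9 of the 11 had a motif, and none lay in the gene. The upstream ones fell in or near Prhoxnb and Flt3, and the 2 most distant downstream ones were nearest to the start of Pdx1. At the Cdx2 start itself there were 4 CTCF and 6 IgG tags.

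Pax1 followed with 8 summits, 2 of them in the body. Cdx1, Neurog1 and Pax7 had 7 each. Those of Cdx1, a gene of the hindgut and posterior axis, lay 4 upstream and 3 downstream, with 3 in introns of Pdgfrb and 2 in introns of Camk2a. Neurog1, a proneural gene, had 5 upstream, including one of 19 tags between genes with a score of 375.91, and 2 downstream in or beside 4930550C17Rik. Pax7, a gene of muscle satellite cells, had 4 upstream, 2 in introns and 1 downstream, the nearest of them 7120 bp before the start with 21 tags. Pax5 had 6 summits, all in introns of its long body and none in its flanks.

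At the other end, 4 regions held no summit, those of Gata3, Gata6, Lhx6 and Pax3, or 10% (3.96 to 23.1), beside 17.7% of all genes. Gata3 (chr2:9778705-9811661, minus strand), of T cells and trophoblast, had 412 CTCF and 434 IgG tags in its region of 133 kb. For Gata6 the counts were 366 and 434, for Lhx6, of cortical interneurons, 423 and 443, and for Pax3, of neural crest and muscle precursors, 545 and 707. In all 4 the CTCF library had fewer tags than the IgG library. The same held at Isl1 (319 and 364), Neurod1 (292 and 342) and Pax6 (482 and 528), whose regions hold 1 summit each. The 4 were picked for having no peak called against this IgG library, so their low CTCF counts are partly set by that choice. Their starts differed, with 19 CTCF and 9 IgG tags at Gata3, 14 and 3 at Gata6, 3 and 6 at Lhx6, and 5 and 9 at Pax3.

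**Figure D4:**
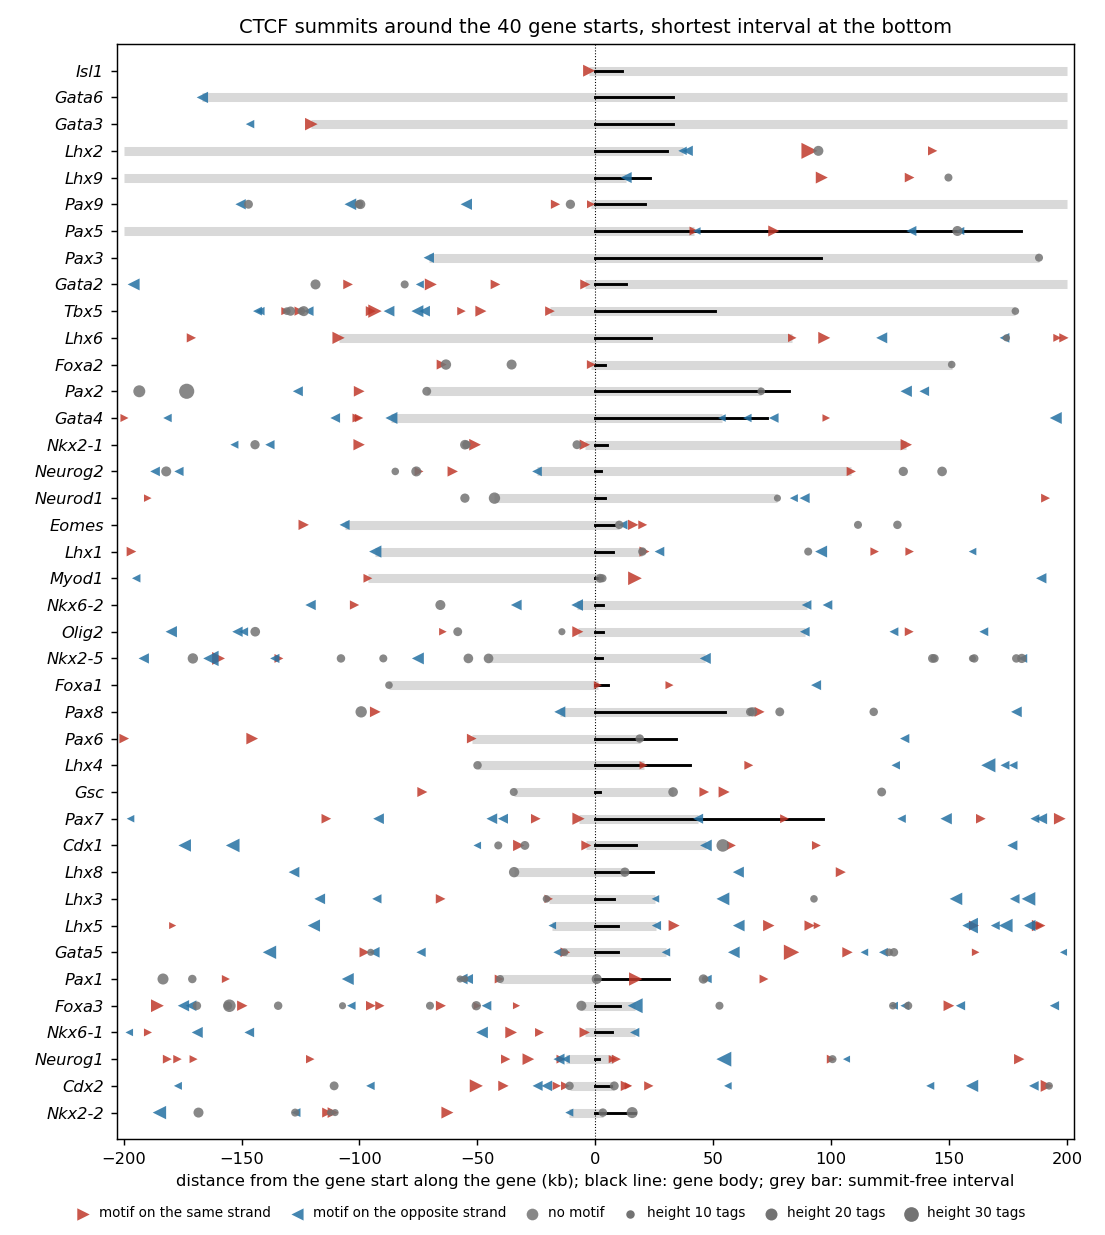
Summits within 200 kb of each start, in kb along the gene and ordered by the length of the interval between the nearest summits (grey bar, cut at 200 kb), with symbol area by height in tags and triangles for the strand of the motif relative to the gene. Isl1, Gata6 and Gata3 at the top have long grey bars, while Nkx2-2, Cdx2 and Neurog1 at the bottom are closed in on both sides.

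The distance from the start to the nearest summit had a median of 12.9 kb (interval 7.38 to 20.0), beside 15.6 kb for all genes. For 11 of the 40 it was 5 kb or less, beside 24.1% of all genes. The nearest summit lay upstream of the start in 22 genes and downstream in 18, beside 53.4% upstream for all genes. The whole summit-free interval around the start had a median of 97.9 kb (70.4 to 140), beside 77.9 kb for all genes, 96.2 kb for the other lineage factors and 70.8 kb for the pluripotency factors. It ranged from 14.2 to 858 kb. Over 200 kb were 9 of the 40, beside 25.4% of all genes, and under 25 kb were 5, beside 16%.

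**Figure D5:**
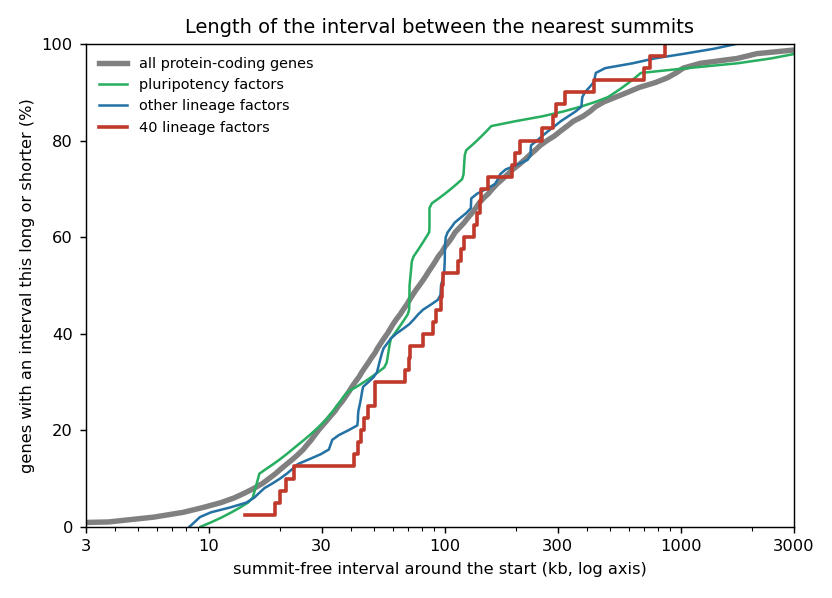
Cumulative share of genes, in percent, against the length of the summit-free interval around the start in kb on a log axis, for the 40 lineage factors, the other lineage and pluripotency factors and all protein-coding genes. The 40 lie to the right of all genes in the lower part of the range, with medians of 97.9 and 77.9 kb, and none of them is under 14.2 kb.

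The longest intervals were those of Isl1, Gata6, Gata3, Lhx2 and Lhx9. Isl1 (chr13:117088478-117099896, minus strand), of motor neurons and the second heart field, had a summit of 20 tags 2641 bp upstream and the next one, of 8 tags, 855 kb downstream. The interval of 858 kb was exceeded in 7.29% of all genes. Gata6 lay in 740 kb with 167 kb upstream and 574 kb downstream, and Gata3 in 695 kb with 120 kb upstream and 575 kb downstream. In these 3 the longer side was downstream. Lhx2, of forebrain and eye, lay in 428 kb with 391 kb upstream, and Lhx9, of gonad and thalamus, in 321 kb with 308 kb upstream and an intronic summit of 17 tags 13.1 kb downstream.

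The shortest intervals were those of Nkx2-2, Cdx2, Neurog1, Nkx6-1 and Foxa3. Nkx2-2 (chr2:147003282-147019979, minus strand), of ventral neural tube and pancreas, was closed in 14.2 kb by a summit of 9 tags 11.0 kb upstream and one of 10 tags 3.20 kb downstream in its own intron. Further into that gene, 15.6 kb after the start, stood a summit of 17 tags with the highest score of the 127, 533.67, and 86 CTCF and 9 IgG tags in the peak. Cdx2 lay in 18985 bp and Neurog1 in 19975 bp. Nkx6-1, of beta cells and motor neurons, lay in 21.2 kb between summits of 15 and 12 tags. Foxa3 lay in 22.8 kb between one of 14 tags in an intron of Sympk, 5.91 kb upstream, and the tallest of the 127 summits, in Irf2bp1.

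The intervals were sparsely filled with genes. In 25 of 40, or 62.5% (47.0 to 75.8), the lineage gene had the only protein-coding start between its nearest summits, beside 36.7% of all genes, and the interval excludes that share. For the other lineage factors it was 61.5% (45.9 to 75.1) and for the pluripotency factors 73.7% (51.2 to 88.2). The lineage regions also held a median of 1 other protein-coding start (range 0 to 6), beside 2 for all genes, and how far this lower gene density accounts for the share was not tested. Lhx6 had the most other starts in its interval, 4.

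Motif strands could be read on both sides in 21 genes. The motifs pointed towards each other across the start (plus strand on the lower side, minus on the higher) in 10 of the 21, or 47.6% (28.3 to 67.6), beside 28.9% of the 12007 protein-coding genes with both motifs. The interval reaches down to the share of all genes, so the difference was not separable from counting error at this number of genes. The 10 were Gata2, Gata5, Isl1, Lhx3, Lhx9, Nkx6-1, Cdx1, Pax7, Pax9 and Olig2. In 8 genes both motifs lay on the same strand, as at Gata3, Gata6 and Lhx6, 38.1% (20.8 to 59.1) beside 47.1% of all genes. In 3 (Pax5, Neurog1 and Neurog2) they pointed away from each other, 14.3% (4.98 to 34.6) beside 24%. Among the other lineage factors 11 of 23 were convergent, and among the pluripotency factors 2 of 10. When the nearest summit with a motif was taken on each side, all 40 genes could be read and 15, or 37.5% (24.2 to 53.0), were convergent, beside 28.3% of all genes.

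By family, the 3 Forkhead genes had their nearest summits closest, from 1075 to 5914 bp. Together they had 34 CTCF and 8 IgG tags at their starts, a ratio of 4.05 (1.84 to 10.1), beside 1.69 for all protein-coding starts. Of these CTCF tags 17 came from Foxa3, 10 from Foxa2 and 7 from Foxa1, whose start has a peak. The T-box pair had 24 and 5 tags, a ratio of 4.57 (1.71 to 15.3), with most of the CTCF tags from Eomes, as Tbx5, of heart and forelimb, had 5 and 4. The 5 GATA genes lay in intervals of 42.6 to 740 kb and 2 of them had no summit in the region. Gata4, of heart and endoderm, had 2 intronic summits and 2 downstream, and at Gata5 all 5 summits were in the flanks.

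The 8 Pax genes carried 32 of the 127 summits, and 5 of them had a summit in the body. The 9 LIM homeobox genes had 20 summits and the lowest start signal of the larger families, with 42 CTCF and 39 IgG tags, a ratio of 1.03 (0.647 to 1.63). The 5 NK genes had 14 summits and each had one in its flanks. Of these, Nkx2-1, of lung, thyroid and forebrain, had summits 4450 and 7794 bp upstream, and Nkx2-5, of the heart, had none nearer than 45276 bp. The 5 bHLH genes also had 14 summits and each had one in its flanks, while Cdx1, Cdx2 and Gsc, the organizer gene, had 21 and none in a gene body, with 13 CTCF and 13 IgG tags at the 3 starts.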

How the data were processed

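The authors deposited, per the file headers and values, 1 line per aligned tag of 35 bp with a count of 1, MACS 1.4 peaks scored by p-value against the IgG library (a score of 50, the lowest, stands for 1e-05) and summits with the signal, the height in tags. The aligner is not given in the sources used here. From these files, tags were moved by 92 bp towards the fragment centre and counted within 1 kb of gene starts. CTCF and IgG tags were compared by two-sided exact binomial tests given the library depths, with Benjamini-Hochberg adjustment over all protein-coding genes with tags and a threshold of 0.05. Shares carry 95% Wilson intervals, ratios exact and medians order-statistic intervals. The motif matrix (pseudocount 1) came from sequences in the study's supplement, scanned at p 1e-05 on mm9. The start test and the motif search were tried on simulated data. Nearest summits were checked by a direct search of the real peaks, and the other steps had no such check. Scripts ran under Python 3.11.15 with pysam 0.24.0, scipy 1.17.1 and numpy 2.4.6, tables were handled in pandas 2.3.3 and plots drawn in matplotlib 3.10.9.

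The genes and comparison lists were chosen with earlier results of these data known, and comparisons with all genes are descriptions. Of 40 other lineage factors listed 39 matched the annotation, and 19 of 20 pluripotency factors. Genes were named with values if they had a start peak, passed the test, had no summit in the region, or were among the 5 with the longest or shortest interval, the most summits or the tallest summits. All others, such as Olig2, Foxa2 and Pax9, were named after their values were seen. Sequence of chromosome 18 is not printed.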

Additional observations from a re-analysis of the deposited data

How the results depend on the processing

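No paired analysis was possible because each antibody has a single library. Of 42 alternatives, 3 of them chosen after seeing the data, 27 left the value within 1.5 times the count or within its interval. Start peaks fell to 1 gene (Pax1) with a score of at least 100, with a window of 500 bp and with the summit inside the window, and came to 5 at 2 kb. With a score of at least 100, body summits fell to 5 genes (all genes 26.6%). The density fell to 1.39 per 100 kb (all genes 1.46, the region of each gene counted). At that score the nearest summit moved to 20.1 kb (26.3 kb) and the interval to 141 kb (129 kb). The motif share was then 78.9% (79.9%) and the median height 14 (16). The exact test called 2 starts (Eomes and Foxa3) at 500 bp and 7 at 2 kb (calls in either direction over all 22367 genes 4.94% and 17.0%, against 10.3% at 1 kb). The motif share was 84.3% at p 1e-04 and 33.9% within 50 bp of the summit (all summits 84.1% and 31.8%). Among genes with an interval of at least the members' median, 4 of 12 were convergent, 33.3% (13.8 to 60.9), beside 30.4% of all such genes, and under that median 6 of 9, 66.7% (35.4 to 87.9), beside 27.7%. The cause of these shifts was not tested, beyond the fewer peaks or genes that the stricter settings leave.

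Depth limits the starts. With a median of 5 CTCF and 3 IgG tags, the 4 starts that passed the test had ratios of 3.81 to 18.1, and the absence of a peak is not absence of CTCF. The outermost annotated 5′ end need not be the start used in ESCs, and no replicate shows how the counts vary between cultures.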
